A study of Mus musculus with 5 samples.

Results

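Heat shock proteins and their DnaJ co-chaperones were examined in kidneys of mice given DMXAA, a small molecule that activates mouse STING, and of mice given vehicle. The set holds 67 of the 54532 genes in the count table: every Hsp70, Hsp90, Hsp110, Hsp60, Hsp10, small heat shock and DnaJ gene whose symbol begins with Hspa, Hspb, Hspd, Hspe, Hsph, Hsp90, Dnaja, Dnajb or Dnajc and a number, without the entries named as pseudogenes and with at least 10 counts summed over the 5 libraries. A further 5 such genes fell short of 10 counts and 14 were named as pseudogenes. There were 2 DMXAA libraries and 3 vehicle libraries, all from whole kidney of wild-type male C57BL/6J mice aged 8 weeks. DMXAA was injected into the peritoneum at 10 mg/kg each day for 3 days, vehicle was given on the same schedule, and tissue was taken on day 3. Whether the numbered replicates were different mice is not stated in the labels, and p-values here measure only the spread between these samples, which may be technical.

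Hsp70 proteins bind exposed hydrophobic stretches of other proteins, hold them tightly on ATP hydrolysis and release them on nucleotide exchange. J-domain proteins of the DnaJA, DnaJB and DnaJC classes bring clients to Hsp70 and trigger its ATPase, and Hsp110 proteins act as nucleotide exchange factors. Hsp90 matures kinases and steroid receptors, the Hsp60 and Hsp10 chaperonin folds imported proteins in mitochondria, and small heat shock proteins hold unfolding proteins in solution. A subset is induced through the transcription factor HSF1 when proteins unfold in the cytosol, and another subset through the unfolded protein response of the endoplasmic reticulum (ER). In the kidney the medulla is known for high levels of several inducible members, where they accompany high salt and urea.

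The upstream sequences of the inducible pair Hspa1a and Hspa1b, of the small heat shock gene Hspb1, of the chaperonin gene Hspe1 and of the ER Hsp70 gene Hspa5 are shown because these genes stand for the modes of control that the results contrast. They are RefSeq sequences on GRCm38.p6, the assembly that mm10 also names, and hold the 250 bases before the start site, 5′ to 3′ on the strand of the gene. Capitals mark runs that match 2 inverted heat shock units (GAANNTTC or TTCNNGAA) in the first 4, with a longer run in Hspe1 where matches overlap, and the ER stress element (CCAAT, then 9 bases of any kind, then CCACG, on either strand) in Hspa5.
Hspa1a, chr17:34972157-34972406, minus strand: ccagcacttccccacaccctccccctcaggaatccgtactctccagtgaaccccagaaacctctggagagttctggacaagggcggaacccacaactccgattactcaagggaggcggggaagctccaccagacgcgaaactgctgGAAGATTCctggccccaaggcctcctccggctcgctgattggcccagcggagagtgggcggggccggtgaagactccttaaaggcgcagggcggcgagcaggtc
Hspa1b, chr17:34959239-34959488, minus strand: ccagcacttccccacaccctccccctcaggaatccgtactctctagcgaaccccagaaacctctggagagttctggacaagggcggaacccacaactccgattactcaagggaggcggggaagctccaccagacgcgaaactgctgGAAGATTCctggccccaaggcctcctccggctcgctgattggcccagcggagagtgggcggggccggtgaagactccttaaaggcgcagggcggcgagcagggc
Hspb1, chr5:135887669-135887918, plus strand: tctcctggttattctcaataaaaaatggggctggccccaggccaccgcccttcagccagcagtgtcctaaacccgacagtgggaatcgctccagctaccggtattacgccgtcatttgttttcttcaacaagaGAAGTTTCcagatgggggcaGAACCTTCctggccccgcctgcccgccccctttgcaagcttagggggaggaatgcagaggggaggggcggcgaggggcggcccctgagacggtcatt
Hspe1, chr1:55087898-55088147, plus strand: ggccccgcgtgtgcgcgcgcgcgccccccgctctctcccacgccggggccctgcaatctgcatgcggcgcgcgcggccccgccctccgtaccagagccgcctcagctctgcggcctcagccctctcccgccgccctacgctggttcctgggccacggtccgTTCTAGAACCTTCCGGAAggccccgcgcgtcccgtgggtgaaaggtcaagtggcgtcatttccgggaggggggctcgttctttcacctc
Hspa5, chr2:34771840-34772089, plus strand: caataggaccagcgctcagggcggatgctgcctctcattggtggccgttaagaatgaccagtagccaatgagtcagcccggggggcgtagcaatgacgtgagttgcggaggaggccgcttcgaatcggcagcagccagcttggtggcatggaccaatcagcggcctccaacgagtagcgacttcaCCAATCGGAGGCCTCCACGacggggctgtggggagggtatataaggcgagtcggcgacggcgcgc

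RefSeq windows of 300 bases, which add the 50 bases after the start, were on hand for 54 members. The 2-unit motif was in 14 of them (25.9%), against 17% of all 27025 genes with a window, so by itself it is common. A run of 3 units (GAA, TTC and GAA with 2 bases of any kind between neighbours, or the reverse complement, each of which contains 2-unit matches) was in 4 members (7.41%), Dnajb6, Hspd1, Hspe1 and Hsph1, against 0.662% of all genes. The windows of Hspd1 and Hspe1 overlap, and their runs are the same bases read on opposite strands. The same site thus counts for both genes, also for the 2-unit motif. The ER stress element was in 3 members (5.56%), Dnajc3, Hsp90b1 and Hspa5, against 0.137% of all genes. These are matches of letters and not measured binding sites. Hspa1a and Hspa1b differed at 3 of the 250 upstream bases, and their coding sequences were 99.4% identical, with 8 differing bases, a gap of 3 bases and an identical run of 638 bases. Reads of this pair can therefore be assigned to either gene only in part, and how the authors' counting treated such reads is not given in the sources used here.

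No member differed between DMXAA and vehicle kidneys in the test across all genes. The quasi-likelihood F test of edgeR on the counts, with Benjamini-Hochberg adjustment over 16226 genes, called 0 of the 66 members that passed the expression filter, where it called 0 of all genes (0%), and the smallest adjusted p of a member was 0.724. DESeq2 also called 0 members, where it called 59 of all genes (0.364%). At an unadjusted p below 0.05, edgeR counted 2 members as higher in DMXAA and 0 as lower, where the shares over all genes were 3.89% and 2.65%, or 6.55% in either direction. That count was 4 without vehicle library 1, 6 without vehicle library 2, 2 without vehicle library 3 and 1 without each DMXAA library in turn. Over all genes the shares in those fits were 9.63%, 11.8%, 5.3%, 3.33% without DMXAA library 1 and 1.5% without DMXAA library 2. The median log2 fold change over the 66 members was 0, beside -0.01 over all genes tested. Estimates were above 0 for 33 members and below 0 for 33, and they were small, with a median size of 0.09 against 0.15 over all genes. Both DMXAA libraries lay above all vehicle libraries for 10 members and below them for 7, where the shares over all genes were 13.7% and 12.3%. Together these are 25.8% of the tested members, beside 26% of all genes. The member left untested by the filter was Hspb9, a testis small heat shock gene, with 16 and 7 counts in DMXAA and 6, 9 and 7 in vehicle libraries.

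**Figure D1:**
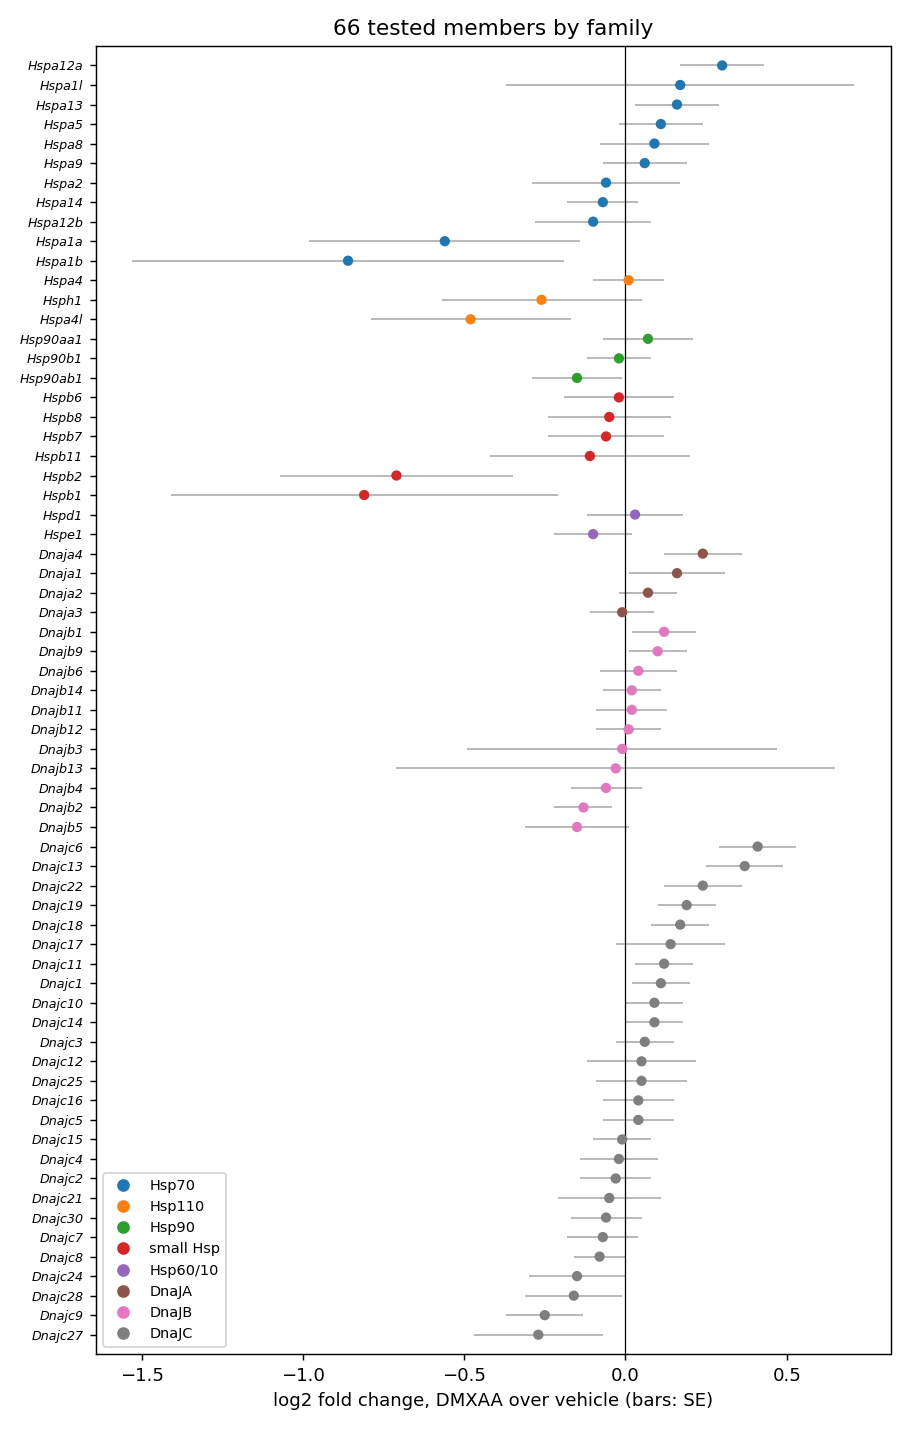
The log2 fold change of each of the 66 tested members (horizontal axis, DMXAA over vehicle, bars are the standard error) is drawn by family, one gene per row. Most members sit within a narrow band around 0, while Hspa1b, Hspb1, Hspb2, Hspa1a and Hspa4l lie lowest with wide bars and Dnajc6 and Dnajc13 lie highest.

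The libraries held 18176586 and 20264228 counts in DMXAA and 17667490, 18552912 and 17712843 in vehicle, and 0 counts in a library is compatible with at most 0.148 to 0.170 CPM, a limit for counting error alone. Levels below are CPM, the counts scaled to a common library size with TMM factors, unless they are said to be per kilobase of annotated exon. Vehicle libraries 1 and 2 stood apart, in opposite directions. Vehicle library 1 was at least 1.5-fold above every other library in 741 genes (4.57%), against 62 to 119 genes for each of the other 4 libraries. Vehicle library 2 was at least 1.5-fold below every other library in 707 genes (4.36%), against 160 to 326 genes for each of the other 4 libraries, and 0 members were among the 707. The tissue label fitted its defining markers, with 9 of 9 tubule and podocyte genes detected and summed levels of 26500 and 26100 CPM in DMXAA and 22700 to 27200 CPM in vehicle libraries. Interferon-stimulated genes, a check on the treatment, summed over 7 genes to 586 and 752 CPM in DMXAA and 174, 407 and 197 CPM in vehicle libraries. Irf7 made up most of the DMXAA sums, at 343 and 478 CPM, and was at 48.8, 193 and 68.4 CPM in vehicle libraries. For 5 of the 7 genes both DMXAA values were above all vehicle values. Vehicle library 2 reached the DMXAA values for Ifit1 (40.1 against 39.9 and 46 CPM) and Ifit3 (90.6 against 86.3 and 89 CPM).

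The chaperones that the kidney expressed most were the constitutive ones, and their levels overlapped between the groups. All 67 members together took 8790 and 9340 CPM in DMXAA libraries and 8730, 9490 and 8460 CPM in vehicle libraries. Per kilobase of exon the order was led by Hspa8 (435 CPM per kilobase over the 5 libraries), Hsp90ab1 (341), Hspd1 (221), Hspa9 (195) and Hspe1 (108), while the lowest member, the cilium and sperm gene Dnajb13, was at 0.168. By CPM, Hspa8, Hsp90ab1, Hspa9, Hspd1 and Hspa5 together held 52.8% of the vehicle total of the set, and 63 members were at 1 CPM or more in every library.

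Among the Hsp70 genes, Hspa8, the constitutive cytosolic Hsc70 that also strips clathrin from vesicles, was at 1870 and 2000 CPM in DMXAA and 1620, 2140 and 1710 CPM in vehicle libraries. The vehicle values spanned both DMXAA values, and the log2 fold change was 0.09 (SE 0.17). Hspa9, the Hsp70 of the mitochondrial matrix, was at 859 and 859 CPM in DMXAA and 750, 903 and 823 CPM in vehicle libraries. Hspa5, the ER Hsp70 known as BiP and a standard readout of ER stress, was at 394 and 475 CPM in DMXAA and 368, 428 and 413 CPM in vehicle libraries. Its DMXAA library 2 was the highest of all and its DMXAA library 1 lay inside the vehicle range, with a log2 fold change of 0.11 (SE 0.13, edgeR adjusted p = 0.864). Hspa13, a further ER-associated Hsp70, had a log2 fold change of 0.16 (SE 0.13), and Hspa14, which works at the ribosome, of -0.07 (SE 0.11). Hspa2, best known from the testis, was low, at 7.32 and 6.42 CPM in DMXAA and 9.03, 6.42 and 5.99 CPM in vehicle libraries. Hspa12a, a distant Hsp70 relative, was at 33.1 and 36.5 CPM in DMXAA and 32, 24.5 and 28.2 CPM in vehicle libraries. Both DMXAA values of Hspa12a exceeded all vehicle values, the only such case among the 11 tested Hsp70 genes, and its log2 fold change was 0.30 (SE 0.13, edgeR adjusted p = 0.741).

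Of the 4 members with a log2 fold change of at least 0.5 in size, 3 were the inducible genes Hspa1b, Hspb1 and Hspa1a, all with estimates below 0 that rested on vehicle library 1. Hspa1b, the main stress-inducible Hsp70 gene with Hspa1a, was at 33.2 and 41.4 CPM in DMXAA and 136, 23.4 and 43.4 CPM in vehicle libraries. Hspa1a, which lies next to Hspa1b on chromosome 17 with 9951 bases between them, was at 15.6 and 16.5 CPM in DMXAA and 39, 13.4 and 18.3 CPM in vehicle libraries. In both genes vehicle library 1 was the highest, vehicle library 2 the lowest, and the DMXAA libraries lay between. Hspb1, the small heat shock protein Hsp25 that binds actin, was at 10.5 and 13.6 CPM in DMXAA and 41, 9.49 and 13 CPM in vehicle libraries. Hsph1, the inducible Hsp110, was at 135 and 155 CPM in DMXAA and 258, 126 and 135 CPM in vehicle libraries. Hspa4l, an Hsp110 relative found in mouse kidney as an osmotic stress protein, was at 44.8 and 43.9 CPM in DMXAA and 92.1, 45.6 and 47.4 CPM in vehicle libraries. The groups overlapped in Hspb1 and Hsph1, whereas in Hspa4l both DMXAA libraries were below all vehicle libraries, by a small margin from vehicle library 2.

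**Figure D2:**
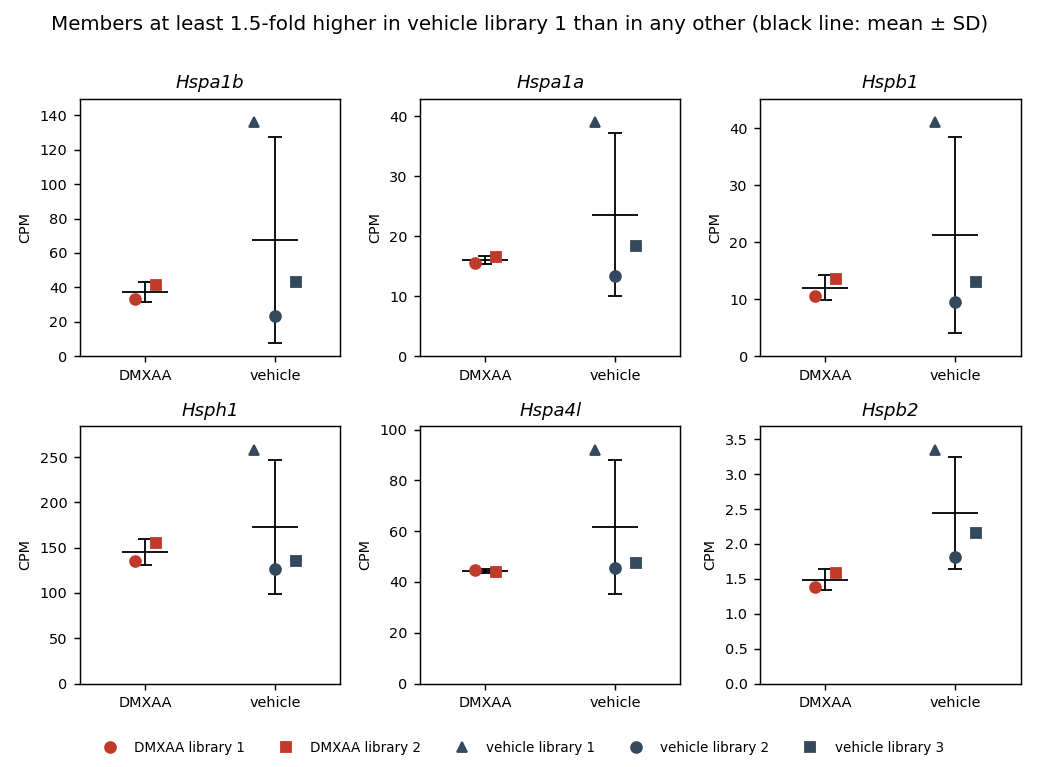
CPM per library (vertical axis, from 0) of the 6 members that were at least 1.5-fold higher in vehicle library 1 than in every other library, with DMXAA left of vehicle and the mean ± SD in black. The triangle of vehicle library 1 lies above every other point in each panel.

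The log2 fold changes were -0.86 (SE 0.67) for Hspa1b, -0.81 (SE 0.60) for Hspb1, -0.56 (SE 0.42) for Hspa1a, -0.48 (SE 0.31) for Hspa4l and -0.26 (SE 0.31) for Hsph1, with edgeR adjusted p of 0.779 to 0.864. Without vehicle library 1 they were 0.15 (SE 0.26) for Hspa1b, 0.09 (SE 0.21) for Hspb1, 0.01 (SE 0.17) for Hspa1a, -0.07 (SE 0.10) for Hspa4l and 0.14 (SE 0.11) for Hsph1. The direction below 0 was thus lost in 4 of these 5 genes. They are the genes that stood out as high in vehicle library 1, so a rise of their estimates without it follows largely from that choice. Without vehicle library 2, the lowest library of Hspa1b, Hspa1a and Hspb1, their estimates were -1.26, -0.83 and -1.16. Of the 12 members listed as cytosolic heat shock response genes, 5 were at least 1.5-fold higher in vehicle library 1 than in every other library, and 8 were highest there. The other 7 members of that list did not reach the 1.5-fold mark. Dnajb1, the J protein that partners inducible Hsp70, was at 49.9 and 57 CPM in DMXAA and 48.4, 52.2 and 47.5 CPM in vehicle libraries. Hsp90aa1, the inducible Hsp90, was at 359 and 414 CPM in DMXAA and 421, 355 and 329 CPM in vehicle libraries, and Hspa8 was lowest in vehicle library 1. Over the whole set 6 of 66 tested members (9.09%) passed the 1.5-fold mark in vehicle library 1, beside the 4.57% of all genes, and 0 did in any other library.

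**Figure D3:**
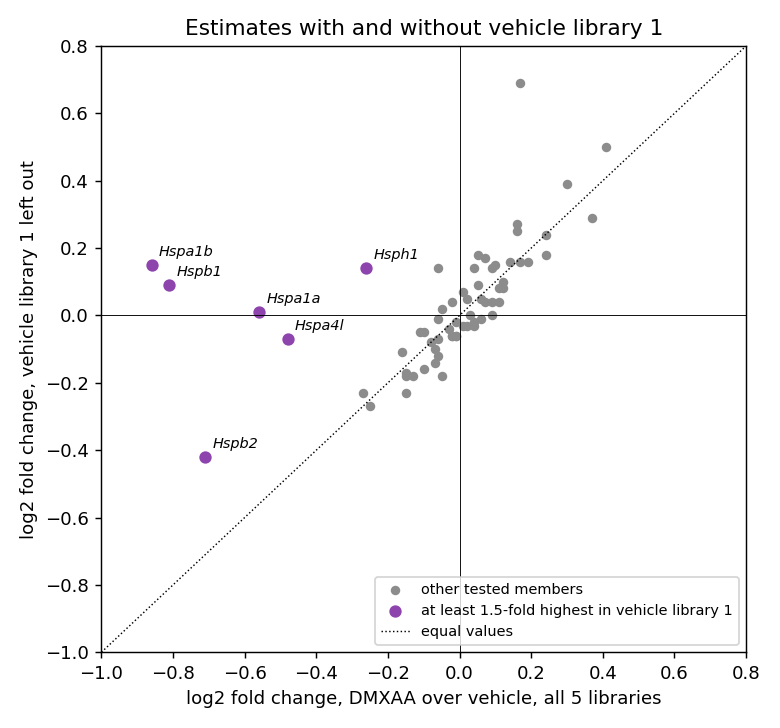
Log2 fold changes (DMXAA over vehicle) over all 5 libraries (horizontal axis) and without vehicle library 1 (vertical axis) for the 65 members tested in both fits. The 6 members at least 1.5-fold above every other library in vehicle library 1 are in purple. They lie at -0.86 to -0.26 on the horizontal axis and at -0.42 to 0.15 on the vertical axis. This rise follows largely from picking them by their level in the library left out. Most other members follow the dotted line of equal values.

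Many transcripts of the medulla and of other tissues were high in the same library. Of the 9 tubule and podocyte genes, only 1, Aqp2, was highest there, and it is also in the medulla list below. Umod, among others, was lowest there, at 2810 CPM against 3450 to 5570 CPM in the other libraries. In whole tissue, fewer cells of a type and less RNA per cell cannot be told apart. A list of 9 genes of the medulla and of the response to hypertonicity, added after the member values were seen, summed to 1530 and 1650 CPM in DMXAA and 2970, 1210 and 1640 CPM in vehicle libraries, with 7 of 9 genes highest in vehicle library 1. Akr1b3, the aldose reductase that makes the osmolyte sorbitol, was at 46.8 and 55.9 CPM in DMXAA and 579, 40.1 and 64.5 CPM in vehicle libraries. Cryab, a small heat shock protein outside the rule, was at 102 and 114 CPM in DMXAA and 628, 85.4 and 149 CPM in vehicle libraries. The list was lowest in vehicle library 2, where the urea transporter gene Slc14a2 was at 8.75 CPM against 65.8 to 90.1 CPM in the other libraries. The osmolyte transporter genes Slc5a3 and Slc6a6 were the 2 that were not highest in vehicle library 1, with 278 and 405 CPM in vehicle library 1 and 214 to 322 and 517 to 620 CPM in the other libraries. Urothelial markers (6 of 6 genes highest in vehicle library 1) summed to 8.1 and 3.93 CPM in DMXAA and 115, 2.22 and 12.7 CPM in vehicle libraries. Adipocyte markers (6 of 6) summed to 47.5 and 55.4 CPM in DMXAA and 390, 27.7 and 44.6 CPM in vehicle libraries, where Adipoq was at 0 in both DMXAA libraries and Lep was at 0 in every library but vehicle library 1. Smooth muscle markers (5 of 6) summed to 70.6 and 77.7 CPM in DMXAA and 215, 78.3 and 67.6 CPM in vehicle libraries. Red cell transcripts were lower in DMXAA libraries, with 5 of 5 at an unadjusted p below 0.05 and 0 called by edgeR: the 5 genes summed to 52.3 and 29.9 CPM in DMXAA and 280, 170 and 73.3 CPM in vehicle libraries, and each was below all vehicle values. Leukocyte markers summed to 41 and 26.6 CPM in DMXAA and 28.7, 32.1 and 60 CPM in vehicle libraries, and skeletal muscle markers stayed below 2 CPM in sum in every library. The part of these tissues and cells in the levels of the inducible members was not tested.

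**Figure D4:**
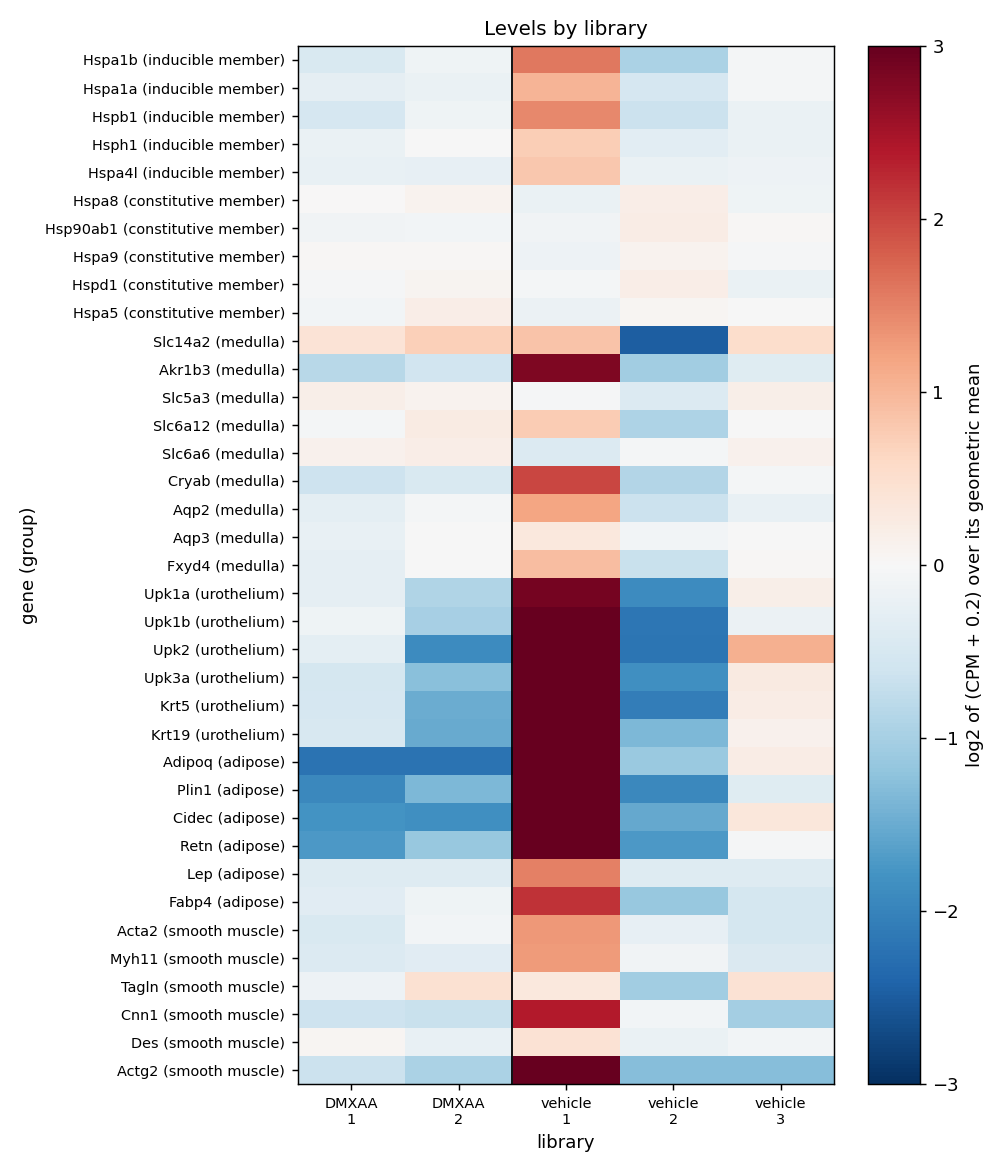
Colour gives the log2 of CPM plus 0.2 over the geometric mean of the same gene across the 5 libraries (rows are genes with their group, columns are libraries with DMXAA on the left, colours saturate at 3 and -3). The inducible members drawn are only the 5 of 12 listed that were at least 1.5-fold above every other library in vehicle library 1. These 5 and most medulla, urothelium, adipose and smooth muscle genes are reddest in vehicle library 1. For the 5 members this follows from that choice. The constitutive members drawn, the 5 with the highest CPM in vehicle, are near white throughout. Of these, Hspa8 and Hsp90ab1 are also among the 12 listed, and the remaining listed members are not drawn.

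Hspb2, a small heat shock protein of muscle, also belonged to the 6 members at least 1.5-fold above every other library in vehicle library 1. It was at 1.39 and 1.59 CPM in DMXAA and 3.35, 1.82 and 2.16 CPM in vehicle libraries, so that the DMXAA values were below all vehicle values (log2 fold change -0.71, SE 0.36, edgeR adjusted p = 0.75). Its annotated exons share 252 bases, 30.2% of their length, with Cryab on the opposite strand, and since the strand setting of the counting is not given, reads of Hspb2 and Cryab cannot be told apart there. Without vehicle library 1 the estimate was -0.42 (SE 0.35). All 6 tested genes with an Hspb symbol, Hspb11 among them, had estimates below 0, with values from -0.81 to -0.02. Only 3 of the 6 did without vehicle library 1, where Hspb1, Hspb6 and Hspb8 were at 0.09, 0.04 and 0.02. Hspb8, which works with Bag3 in the removal of damaged proteins, was at 7.66 and 6.37 CPM in DMXAA and 7.89, 6.37 and 7.43 CPM in vehicle libraries. Hspb6 and Hspb7, small heat shock proteins of muscle, had log2 fold changes of -0.02 (SE 0.17) and -0.06 (SE 0.18).

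The Hsp90 genes and the chaperonin overlapped between the groups in every case. Hsp90ab1, the constitutive cytosolic form, was at 946 and 967 CPM in DMXAA and 953, 1190 and 1050 CPM in vehicle libraries (log2 fold change -0.15, SE 0.14). Hsp90b1, the ER form called Grp94, was at 255 and 291 CPM in DMXAA and 264, 288 and 279 CPM in vehicle libraries. Neither group was set apart, and DMXAA library 1 held the lowest value in both genes. Hspd1, which encodes Hsp60, was at 571 and 610 CPM in DMXAA and 561, 668 and 506 CPM in vehicle libraries. Hspe1, which encodes its lid Hsp10, was at 147 and 157 CPM in DMXAA and 152, 187 and 152 CPM in vehicle libraries. These 2 genes run in opposite directions from a shared start region in which their annotated first exons overlap by 112 bases, and both were highest in vehicle library 2. The processed pseudogene Hspd1-ps3, outside the set, held 285 and 180 counts in DMXAA and 190, 195 and 185 in vehicle libraries. Hspa4, the constitutive Hsp110, had a log2 fold change of 0.01 (SE 0.11).

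Among the J proteins, the DnaJA and DnaJB classes had estimates from -0.15 to 0.24, with 0 members at an unadjusted p below 0.05. Dnaja1, a main partner of Hspa8, was at 286 and 343 CPM in DMXAA and 316, 283 and 242 CPM in vehicle libraries. Dnaja4 was at 18.3 and 21.8 CPM in DMXAA and 17, 17.3 and 16.5 CPM in vehicle libraries, the only member of the DnaJA class with both DMXAA values above all vehicle values (log2 fold change 0.24, SE 0.12). Of its annotated exon bases 44.1% lie opposite exons of Wdr61, and since the strand setting is not given, reads of the 2 genes may not be told apart there. In the DnaJB class, Dnajb2 (log2 fold change -0.13, SE 0.09) and Dnajb5 (-0.15, SE 0.16) were below all vehicle libraries in both DMXAA libraries.

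The DnaJC class held the members with the smallest p. Dnajc6, which encodes auxilin, the cofactor by which Hsc70 uncoats clathrin-coated vesicles, was at 42 and 40.2 CPM in DMXAA and 34.9, 30.6 and 27.2 CPM in vehicle libraries. Its groups did not overlap, and the log2 fold change was 0.41 (SE 0.12, edgeR adjusted p = 0.724, unadjusted p = 0.0128). Dnajc13, an endosomal J protein called RME-8 that takes part in sorting receptors, was at 254 and 285 CPM in DMXAA and 186, 221 and 218 CPM in vehicle libraries. Here too the DMXAA values were above all vehicle values, with a log2 fold change of 0.37 (SE 0.12, edgeR adjusted p = 0.724, unadjusted p = 0.0169). Without vehicle library 1 the estimates were 0.50 (SE 0.11) for Dnajc6 and 0.29 (SE 0.11) for Dnajc13, with edgeR adjusted p of 0.305 and 0.478. With an offset for transcript length Dnajc6 was at 0.39 (SE 0.12, edgeR unadjusted p = 0.0136). Dnajc13 was then at 0.30 (SE 0.14, edgeR unadjusted p = 0.0694), above 0.05. Dnajc22, whose fly homologue Wurst is needed for clathrin-mediated endocytosis, was at 107 and 101 CPM in DMXAA and 82.2, 102 and 81.3 CPM in vehicle libraries. Vehicle library 2 overlapped the DMXAA values of Dnajc22, and the log2 fold change was 0.24 (SE 0.12). With the length offset Dnajc22 was at 0.29 (SE 0.10, edgeR unadjusted p = 0.0253). In the 26 tested DnaJC genes both DMXAA libraries were above all vehicle libraries for 8 and below them for 3, which is 42.3% of the class, beside 26% of all genes. This was the highest share of any family. It was 33.3% in Hsp110, 25% in DnaJA, 18.2% in DnaJB, 16.7% in the Hspb genes and 9.09% in Hsp70. It was 0% in Hsp90 and the chaperonin, and 25.8% over all tested members.

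**Figure D5:**
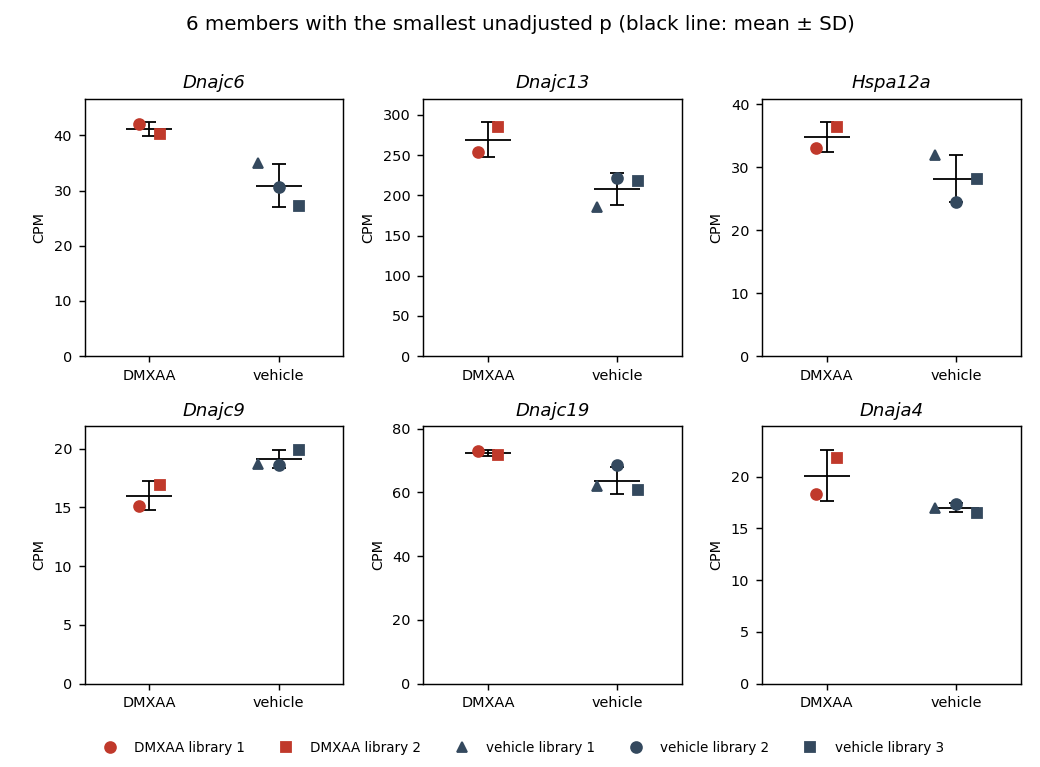
CPM per library (vertical axis, from 0) of the 6 members with the smallest unadjusted p, with DMXAA left of vehicle and the mean ± SD in black. The groups do not overlap in any panel, and Dnajc9 is the gene with DMXAA below vehicle.

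Other DnaJC genes with small differences serve different compartments. Dnajc19, a part of the motor that pulls proteins into mitochondria, was at 73.1 and 71.8 CPM in DMXAA and 62, 68.6 and 60.7 CPM in vehicle libraries (log2 fold change 0.19, SE 0.09). Dnajc11, of the mitochondrial outer membrane, was at 62 and 63.9 CPM in DMXAA and 54.8, 59.8 and 58.9 CPM in vehicle libraries. Dnajc18 was at 35 and 36.6 CPM in DMXAA and 31.6, 30.8 and 33.2 CPM in vehicle libraries. All 3 had DMXAA values above all vehicle values. Dnajc9, a histone chaperone, was at 15.1 and 16.9 CPM in DMXAA and 18.7, 18.6 and 19.9 CPM in vehicle libraries, with DMXAA below all vehicle values (log2 fold change -0.25, SE 0.12, edgeR adjusted p = 0.749). Dnajc27, a Rab-like GTPase fused to a J domain, was at 6.33 and 5.47 CPM in DMXAA and 7.62, 6.2 and 7.54 CPM in vehicle libraries, and its groups overlapped.

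Sorted by compartment, 9 of 10 ER members had estimates above 0, where 46.9% of all genes did. The ER members had a median log2 fold change of 0.07 and a range of -0.02 to 0.16. None passed an unadjusted p of 0.05 in edgeR over all 5 libraries. Without vehicle library 1, Hsp90b1 (-0.06), Dnajb11 (-0.03) and Dnajb12 (-0.03) were below 0 and the other ER members above. Dnajb9, a J protein strongly induced by ER stress, was at 63.8 and 61.7 CPM in DMXAA and 63, 56 and 56.6 CPM in vehicle libraries. Dnajb11, which delivers unfolded proteins to BiP, was at 82.1 and 91.1 CPM in DMXAA and 80.4, 95.7 and 80.8 CPM in vehicle libraries. Dnajc3, an ER co-chaperone that is also an inhibitor of the stress kinase PERK, was at 226 and 230 CPM in DMXAA and 217, 219 and 219 CPM in vehicle libraries. DMXAA values of Dnajc3 were above all vehicle values by a narrow margin, while Dnajb9 and Dnajb11 overlapped. The 3 members with the ER stress element upstream, Hspa5, Hsp90b1 and Dnajc3, had log2 fold changes of 0.11, -0.02 and 0.06. Mitochondrial members had a median of -0.01 over 9 genes and a range of -0.16 to 0.19.

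Among genes that work with the chaperones, edgeR called 0 in any list, and 1 in the 5 lists of factors, co-chaperones and folding enzymes was at an unadjusted p below 0.05. Hsf1, the main heat shock factor, was at 25.9 and 27.5 CPM in DMXAA and 24.9, 27.3 and 25.1 CPM in vehicle libraries. Hsf2 was at 16.1 and 15.6 CPM in DMXAA and 20.7, 19.8 and 17.6 CPM in vehicle libraries, below all vehicle values (log2 fold change -0.29, SE 0.12, edgeR adjusted p = 0.741). Of the 12 exchange factors and other Hsp70 partners, 3 had estimates above 0 and 9 below, with 0 at an unadjusted p below 0.05. Bag3, an exchange factor induced by HSF1, was at 35 and 36 CPM in DMXAA and 40.1, 37.9 and 38.8 CPM in vehicle libraries. Of 16 Hsp90 co-chaperones, 9 had estimates above 0 and 7 below, and 1 was at an unadjusted p below 0.05. That gene, Cdc37l1, a relative of the kinase co-chaperone Cdc37, was at 124 and 155 CPM in DMXAA and 105, 115 and 112 CPM in vehicle libraries (log2 fold change 0.33, SE 0.12, edgeR adjusted p = 0.741). Fkbp5 had the highest estimate of these 16 (0.34, SE 0.40), and its groups overlapped. It was at 105 and 159 CPM in DMXAA and 51.5, 124 and 137 CPM in vehicle libraries, lowest in vehicle library 1. Of 14 cytosolic chaperonin and prefoldin genes, 11 had estimates below 0 with a median of -0.06, and of 11 other ER folding genes 8 had estimates above 0 with a median of 0.01. The cold-inducible gene Cirbp was at 34.1 and 30.3 CPM in DMXAA and 39.8, 40.2 and 37.8 CPM in vehicle libraries (log2 fold change -0.29, SE 0.10, edgeR adjusted p = 0.74), whereas Rbm3, also cold-inducible, overlapped between the groups at 105 and 94.5 CPM in DMXAA and 76, 97 and 99.8 CPM in vehicle libraries.

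Stress at handling and time of day are known to move heat shock genes, so immediate-early and clock genes were read beside them. All 10 immediate-early genes had estimates below 0, and 5 were at an unadjusted p below 0.05, with 0 called. Their sum was 214 and 266 CPM in DMXAA and 292, 334 and 436 CPM in vehicle libraries, so the groups did not overlap and vehicle library 3, not vehicle library 1, was highest. Of 14 clock genes 3 were higher and 1 lower at an unadjusted p below 0.05, with 0 called. Vehicle library 1 was highest for 4 of the 14 (28.6%), beside 25.9% of all genes. Of these, Dbp passed the 1.5-fold mark, at 64.2 and 52.2 CPM in DMXAA and 98, 50.2 and 46.5 CPM in vehicle libraries. The ratio of vehicle library 1 to the mean of the other vehicle libraries was 2.48 for Ciart, 2.03 for Dbp and 1.71 for Per3. It was 1.56 for Cry1, 1.49 for Cry2, 1.48 for Nr1d1, 1.34 for Per2, 1.21 for Tef and 1.19 for Nr1d2. The others were Per1 (1.08), Arntl (1.03), Clock (0.996), Hlf (0.943) and Npas2 (0.848). Per1, the listed clock gene with the smallest unadjusted p in edgeR, was at 82.7 and 81 CPM in DMXAA and 63, 53.2 and 63.1 CPM in vehicle libraries (log2 fold change 0.45, SE 0.10, edgeR adjusted p = 0.688). The part of these differences in the levels of the chaperones was not tested.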

How the data were processed

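RNA of 5 kidney libraries was sequenced. The authors deposited raw read counts per Ensembl gene ID, 1 column per library. The submitters' processing notes list mm10 as the build and name DESeq2 1.16.1, featureCounts, Subread and HISAT2. The role of each tool, the annotation, the strand setting and the handling of multimapping reads were not stated. The labels' protocols name 2 library kits without saying which sample had which, so no batch could be tested. Columns were assigned by name (CO as control, XA as DMXAA, with the replicate number).

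GENCODE M21 gave symbols for 99.93% of the IDs, exon lengths and overlaps. The two-sided quasi-likelihood test of edgeR 4.0.16 (R 4.3.3) was fitted to all 5 libraries with filterByExpr, TMM factors and a term for group alone. Calls were made at an adjusted p below 0.05, and the biological coefficient of variation was 19%. Counts of replicates differed beyond sampling noise in every pair (chi-square over its degrees of freedom, 7.35 to 38.5), and none was merged. Alternatives were DESeq2 1.42.0, RLE scaling, other filters, robust empirical Bayes, a transcript-length offset, a replicate block and leaving out each library. The procedure was tested on simulated counts. Members and gene lists were chosen with earlier results of these data known. Values in every library are given for a fixed set of 19 members, the 12 with the smallest p and the 5 highest per length. Any further gene was picked with its values in view.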

Additional observations from a re-analysis of the deposited data

How the results depend on the processing

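No member was called under any of the 12 alternatives, and 0 of all genes were called as designed, against 59 with DESeq2, 34 without an expression filter and 4 with the replicate block (0 to 2 when a library was left out). The number of members at an unadjusted p below 0.05, 2 as designed, was 4 without an expression filter and 1 to 6 when a library was left out (6 without vehicle library 2), where the shares over all genes were 6.55% as designed, 5.72% without the filter and 1.5% to 11.8% with a library left out (11.8% without vehicle library 2). Members whose groups did not overlap, 17 as designed, numbered 20 to 31 with a library left out, where fewer libraries make separation easier and 37.1% to 47.8% of all genes did not overlap, beside 26% as designed. The median log2 fold change of the members was -0.03 to 0.04 with a library left out. The count of members at least 1.5-fold above every other library in vehicle library 1 was 6, and it was 3 at 2-fold. This measure was not among the designed results, and the 2-fold setting was chosen after seeing the data.

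Estimates of 31 named members kept their direction under DESeq2, RLE scaling, both other filters, robust empirical Bayes and the length offset. With a library left out, the sign turned at least once for 13 of them, over the ranges Hspa1a (-0.83 to 0.01), Hspa1b (-1.26 to 0.15), Hspa2 (-0.17 to 0.14), Hspa5 (-0.03 to 0.24), Hspa9 (-0.01 to 0.13), Hsp90aa1 (-0.04 to 0.17), Hsp90b1 (-0.12 to 0.07), Hsph1 (-0.43 to 0.14), Hspb1 (-1.16 to 0.09), Hspb8 (-0.18 to 0.08), Hspd1 (-0.06 to 0.15), Hspe1 (-0.16 to 0.00) and Dnajb11 (-0.06 to 0.11). Vehicle library 1 turned Hspa1a, Hspa1b, Hspa2, Hspa9, Hsph1, Hspb1, Hspb8 and Dnajb11. The cause was not tested. The replicate block turned Hsp90aa1 (-0.01), Hspd1 (-0.05) and Dnajb11 (-0.02). Deviations from the group means of same-numbered libraries correlated across genes at 0.0698 and 0.0658. With only 2 DMXAA libraries their deviations mirror each other, so this check cannot decide whether the numbers pair the samples. With the block 2 members were at an unadjusted p below 0.05, the median was -0.02 and 0 were called. With DMXAA library 1 or 2 left out, the remaining DMXAA library is assumed to vary like the vehicle libraries. At these depths the standard error was below 0.2 for 55 of 66 members.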
